A study of Homo sapiens with 12 samples.

Results

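The difference between 2 diffuse large B-cell lymphoma lines was compared under selinexor: the 3 libraries of selinexor-treated OCI-LY3 were set against the 3 libraries of selinexor-treated SU-DHL6, out of 12 libraries in all. Members were chosen by treatment and line alone, and every gene counted in these libraries was taken, of which 16474 of 58302 passed the filter on low counts and were tested. The 6 untreated libraries, 3 of each line, served as the reference that shows which differences between the lines remained, appeared or vanished under the drug. Both are established cell lines with the genotype given as WT: by the labels OCI-LY3 is of the activated B-cell (ABC) type and SU-DHL6 of the germinal centre (GCB) type. The labels name 300 and 100 nM selinexor, 24 and 48 h of treatment and of untreated culture, and 10 and 20% serum, without tying any of them to a line or a library. A difference between the treated lines and a difference in dose, time or serum therefore cannot be told apart. The design text speaks of biological triplicates but not of separate cultures, so p-values measure the spread between these libraries.

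Selinexor binds the nuclear export receptor XPO1, which carries proteins with a leucine-rich export signal, and with some of them RNA, out of the nucleus. Cargo such as p53, the NF-kB inhibitor and FOXO factors then stays in the nucleus, and cells commonly raise their XPO1 mRNA. Germinal centre B-cell lymphomas keep genes of the germinal centre reaction, whereas the activated B-cell type shows NF-kB activity and part of the plasma cell programme.

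Library totals ranged from 14210200 to 16405842 counts, and values in CPM below are counts relative to library totals scaled by the trimmed mean of M values (TMM). These scale factors were 0.865 to 0.887 in treated OCI-LY3 and 1.17 to 1.23 in treated SU-DHL6. Pseudogenes took 8.16 to 8.45% of counts in treated OCI-LY3 and 5.13 to 6.05% in treated SU-DHL6, and mitochondrial genes took 7.62 to 8.32% and 8.86 to 10.7%. The count-weighted GC content was 50.6 to 51.2% against 48.9 to 49.3%. The libraries of the lines did not overlap in any of these measures, and their part in single gene differences was not tested beyond the settings named below. As for other cell types, all 3 endothelial markers, HBB, LYZ, EPCAM, CD3G and CD2 had 0 counts in every library. The summed level of the epithelial list, of which KRT5 alone of 4 genes was tested, was 9.92 to 11.2 FPKM (a count scaled to gene length and library total) in treated OCI-LY3 and at most 0.0159 in treated SU-DHL6. The myeloid list, with 2 of 7 genes tested, was at 2.42 to 2.64 against 0.13 to 0.175, stroma, with 2 of 5, at 1.95 to 2.65 against at most 0.0226, and T and NK cells, with 2 of 7, at 0.477 to 0.755 against 0.0328 to 0.171. The part of such cells in the results was not tested. Over 10% of the exon length overlaps another gene for TNFRSF13B, CD79B, CCND2, CD27, REL, HLA-B, HLA-DOB, CIITA, MT1X, RPL13A, TPT1, SMC4, ETHE1, RGMB, HSF4 and FXYD2 among the genes named below. Their counts are uncertain to that extent, as are those of MHC and metallothionein genes, which have near-identical relatives.

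The transcript of the drug's target itself came to differ in level. XPO1 has the gene ID ENSG00000082898 and lies on chromosome 2, 61477849 to 61538626 (GRCh38). Its level was 180.2, 186 and 171 CPM in untreated OCI-LY3, 179, 136 and 143 in untreated SU-DHL6, 358, 329 and 377 in treated OCI-LY3 and 434, 579 and 547 in treated SU-DHL6. In bulk RNA, fewer cells with a transcript and less of it per cell cannot be told apart. XPO1 rose in both lines, the untreated lines overlapped, and every treated SU-DHL6 library lay above every treated OCI-LY3 library. The log2 difference, OCI-LY3 minus SU-DHL6 throughout, was 0.23 ± 0.13 (SE) untreated and -0.55 ± 0.12 treated, a change of -0.78 ± 0.18 (adjusted p = 0.00325, edgeR quasi-likelihood test with Benjamini-Hochberg adjustment). With per-library offsets for GC content and gene length, the treated difference was 0.00 (rounded) and neither it nor the change (-0.22) was called.

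Most differences between the lines stayed in place under selinexor. Genes were called at an adjusted p under 0.05: 11855 of 16474 (72%) differed between the treated lines, 5956 (36.2%) higher and 5899 (35.8%) lower in OCI-LY3, against 11089 (67.3%) untreated, 5537 (33.6%) higher and 5552 (33.7%) lower. With total-count scaling 4317 were higher and 8165 lower treated, and 5156 and 5872 untreated. The treated libraries of the lines did not overlap for 12513 genes (76%). Of the 6887 genes (41.8%) called with an absolute log2 difference of at least 1 untreated, 5784 (84.0%) were still called in the same direction when treated. The median absolute log2 difference was 0.84 untreated and 0.97 treated. The change of the difference, which equals the response of OCI-LY3 minus that of SU-DHL6, was called for 6072 genes (36.9%), more positive for 3274 (19.9%) and more negative for 2798 (17%). With total-count scaling these were 1817 and 4891.

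Genes were then sorted by these 3 tests. A difference remained for 8166 genes (49.6%), which were called in the same direction in both states: no change was called for 5715 of them (34.7% of all tested), 1458 (8.85%) were wider and 993 (6.03%) narrower under the drug. Where a gene had 0 counts in 1 line in both states, its change could not be called however far the other line moved. FXYD2 had a change of 3.53 ± 4292, although its response in OCI-LY3 was 3.53 ± 0.11. APOD had one of -2.18 ± 3291, with a response of 2.18 ± 0.11 in SU-DHL6. Both are counted under no change called, so that group does not hold stable differences alone. A difference appeared, called only when treated with the change itself called, for 1628 genes (9.88%), 807 (4.9%) higher and 821 (4.98%) lower in OCI-LY3. It vanished, called only untreated with the change called, for 1160 genes (7.04%). It reversed, called in both states in opposite directions, for 769 genes (4.67%), of which 450 (2.73%) were higher and 319 (1.94%) lower in treated OCI-LY3. For 2286 further genes (13.9%) a call was made in 1 state only and the change was not called. The drug response itself was called for 44.4% of genes in OCI-LY3 and 43.2% in SU-DHL6. Of the reversed genes, 342 were called in both lines with responses of opposite sign, 180 responded by call in OCI-LY3 only and 175 in SU-DHL6 only, and 72 moved the same way in both lines.

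These classes differed in base composition. The median GC content, taken from the longest transcript of each gene, was 53.45% for differences that appeared higher in OCI-LY3 and 41.9% for those that appeared lower, 53.1% and 42.1% for reversed genes, and 48.6% over all genes tested. With GC and length offsets, 1423 genes appeared, 1021 of which also appeared without them. For vanished genes the count was 1168 with 563 shared, and for reversed genes 776 with 482 shared. Of 8574 genes that remained with offsets, 7569 also remained without them. Total-count scaling kept 7355 of the 8166 genes that remained, 1155 of the 1628 that appeared, 336 of the 1160 that vanished and 437 of the 769 that reversed.

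**Figure D1:**
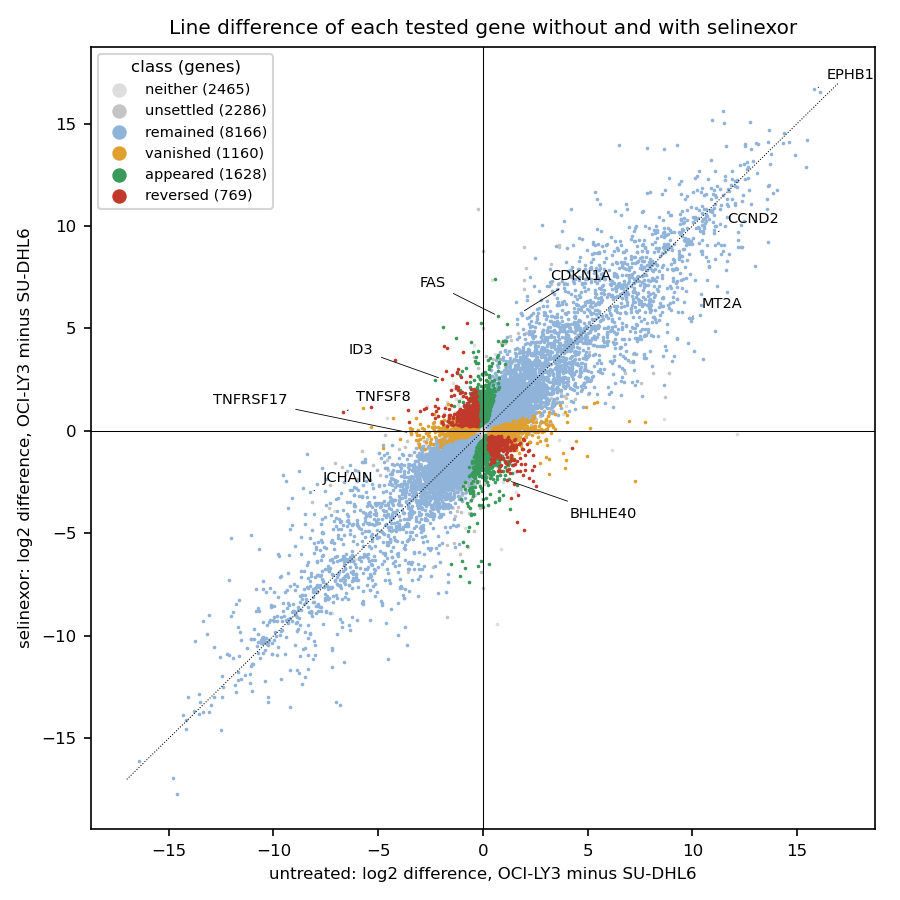
Log2 difference between the lines for each of 16474 tested genes, untreated (horizontal axis) and under selinexor (vertical axis), coloured by class with the number of genes in each. Most points lie along the dotted line of equal differences, and the 769 reversed genes lie above 0 on one axis and below 0 on the other.

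The markers by which the 2 lymphoma types are told apart held under the drug. All 8 genes of the activated B-cell classifier list were higher in OCI-LY3 in both states, with a median log2 difference of 3.40 treated and 2.93 untreated, against -0.03 in each state over all genes tested. All 7 germinal centre classifier genes were lower in both states, with medians of -3.78 and -5.05. TNFRSF13B, a receptor for the survival factors BAFF and APRIL, was at 336, 312 and 315 CPM in treated OCI-LY3 and 20.8, 23.9 and 19.4 CPM in treated SU-DHL6, a difference of 3.91 ± 0.12. CREB3L2, a membrane-bound transcription factor gene, had 147, 141 and 139 CPM in treated OCI-LY3 and 0 counts in all 6 SU-DHL6 libraries, so it was at least 2619.8-fold higher against a floor of 3 counts over the group. IRF4, which directs plasma cell differentiation, was at 462, 432 and 462 CPM in treated OCI-LY3 and 91.6, 96.9 and 98.6 CPM in treated SU-DHL6, and its difference narrowed from 2.72 ± 0.08 to 2.24 ± 0.08. MME, which encodes CD10, was at 0.543, 0.752 and 1.89 CPM in treated OCI-LY3 and 63.0, 52.0 and 48.0 CPM in treated SU-DHL6, with differences of -7.57 ± 0.34 untreated and -5.66 ± 0.30 treated. S1PR2, which confines B cells to the germinal centre, differed by -3.54 ± 0.11 and -3.50 ± 0.11. The lines did not overlap for any of these 5 genes in either state. SERPINA9, a germinal centre protease inhibitor, narrowed from -5.06 ± 0.32 to -1.90 ± 0.27. The kinase gene ITPKB narrowed from -1.79 ± 0.12 to -0.29 ± 0.12, and its treated difference was not called under 12 alternatives, without the third treated OCI-LY3 library among them (-0.14).

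Several general B-cell markers lost their difference between the lines. CD79B, which signals for the B-cell receptor, was at 146, 139 and 138 CPM in untreated OCI-LY3, 545, 642 and 659 in untreated SU-DHL6, 475, 450.2 and 487 in treated OCI-LY3 and 465, 367 and 399.8 in treated SU-DHL6. Untreated OCI-LY3 stood well below the other 3 groups, the treated lines overlapped, and the difference went from -2.13 ± 0.11 to 0.20 ± 0.10 (adjusted p = 0.102 by edgeR treated). Total-count scaling gave a treated difference of -0.25 and the GC and length offsets one of -0.24, both called, and without the first treated SU-DHL6 library it was 0.30 and called. MS4A1, the gene of CD20, went from -0.48 ± 0.12 to 0.21 ± 0.12. Its treated difference was called with GC and length offsets (0.71), without the first treated OCI-LY3 library (0.31) and without the first untreated SU-DHL6 library (0.22), and its change was not called with total-count scaling (0.32). CD22, an inhibitory receptor, went from -0.76 ± 0.22 to 0.27 ± 0.22, with the change no longer called under 9 alternatives. CD79A remained lower at -1.11 ± 0.12 and PAX5, the B-cell identity factor, higher at 1.45 ± 0.10.

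Of 17 germinal centre factors, 8 were higher and 9 lower in treated OCI-LY3, against 36.2% and 35.8% over all genes tested. The list's median was -0.38, which was 0.96 without genes that share exons with another gene. BCL6, the master repressor of the germinal centre, differed by -0.93 ± 0.08 untreated and -0.96 ± 0.08 treated. FOXP1 was higher by 3.63 ± 0.11. BACH2, which holds back plasma cell differentiation, narrowed from -4.27 ± 0.14 to -2.35 ± 0.13: it rose in OCI-LY3 (0.85 ± 0.13) and fell in SU-DHL6 (-1.07 ± 0.12).

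The largest treated differences among protein-coding genes that remained were of genes at or near 0 in 1 line. EPHB1, an ephrin receptor (chromosome 3, 134597801 to 135260467), had 965, 859.7 and 789 CPM in treated OCI-LY3, and SLC12A7, a potassium-chloride cotransporter gene, had 234, 241 and 176. FXYD2, a sodium pump regulator that had 22.4, 24.0 and 24.9 CPM in untreated OCI-LY3, had 291, 259 and 271 when treated. All 3 had 0 counts in every SU-DHL6 library, which makes them at least 16031, 3992 and 5042-fold higher in treated OCI-LY3. TOX2, an HMG-box factor gene, was at least 7499-fold higher, and the smooth muscle actin gene ACTG2, with 2 counts in treated SU-DHL6, was higher by a ratio of 45438 (95% Poisson interval 12578.5 to 375195). AC020909.1 was also among the 6 largest, but its exons lie wholly within those of another gene. In the other direction, APOD, a lipid carrier (chromosome 3, 195568702 to 195584205), rose in SU-DHL6 from 203, 254 and 234 to 1042, 1081 and 1015 CPM with 0 counts in OCI-LY3, at least 13747-fold lower there when treated. IGLL5, an immunoglobulin lambda-like gene that shares exons with another gene, PPDPF, the bone morphogenetic protein gene BMP7, the ubiquitin hydrolase gene UCHL1 and the mitochondrial carrier gene SLC25A27 had 0 counts in OCI-LY3 in both states. Each was at least 1458 to 7637-fold lower in treated OCI-LY3. These intervals and floors cover counting error only.

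Reversed genes changed which line was the higher one. ID3 (ENSG00000117318; chromosome 1, 23557918 to 23559794), an inhibitor of helix-loop-helix factors that acts in the germinal centre, was at 18.2, 20.4 and 17.6 CPM in untreated OCI-LY3, 57.5, 79.1 and 77.9 in untreated SU-DHL6, 147, 154 and 138 in treated OCI-LY3 and 26.9, 23.2 and 25.8 in treated SU-DHL6. SU-DHL6 was the higher line untreated and OCI-LY3 the higher one treated, with no overlap in either state. The difference went from -1.93 ± 0.13 to 2.53 ± 0.13 (adjusted p of the change = 4.63e-09 by edgeR), with ID3 up (2.96 ± 0.13) in OCI-LY3 and down (-1.50 ± 0.13) in SU-DHL6. TNFSF8, the CD30 ligand, was at 0.209, 0.14 and 0 CPM in untreated OCI-LY3, 15.1, 13.5 and 9.97 in untreated SU-DHL6, 9.55, 8.42 and 11.5 in treated OCI-LY3 and 4.87, 5.68 and 4.87 in treated SU-DHL6. It was near 0 in untreated OCI-LY3 alone, and its treated difference of 0.93 ± 0.23 was not called with total-count scaling (0.48). The potassium channel gene KCNJ11 went from -1.86 ± 0.46 to 4.12 ± 0.47 and OLFML2A from -0.77 ± 0.16 to 5.29 ± 0.23. SLC1A4, a neutral amino acid transporter gene, went from -1.22 ± 0.30 to 2.87 ± 0.32, with replicates that differed over 2-fold. AC007240.1, whose exons overlap another gene over 49.4% of their length, went from -4.19 ± 0.45 to 3.47 ± 0.67.

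Of the genes that became lower in OCI-LY3, BHLHE40, a stress- and oxygen-responsive repressor gene (chromosome 3, 4979116 to 4985323), was at 94.5, 87.3 and 91.1 CPM in untreated OCI-LY3, 34.6, 42.9 and 43.8 in untreated SU-DHL6, 15.4, 15.1 and 14.9 in treated OCI-LY3 and 77.7, 80.8 and 81.4 in treated SU-DHL6. It was higher in OCI-LY3 untreated and lower there when treated, without overlap in either state and with differences of 1.17 ± 0.10 and -2.40 ± 0.11. BHLHE40 fell in OCI-LY3 (-2.59 ± 0.11) and rose in SU-DHL6 (0.98 ± 0.10). ACOT1, a thioesterase gene, went from 2.37 ± 0.33 to -1.89 ± 0.53, and the forkhead gene FOXC1 from 0.88 ± 0.19 to -1.95 ± 0.21. GOLGA4, a Golgi tether gene, went from 1.29 ± 0.25 to -2.05 ± 0.25 and ESF1, a nucleolar protein gene, from 1.45 ± 0.18 to -1.67 ± 0.18. CENPE, a kinetochore motor gene whose replicates differed over 2-fold, went from 1.48 ± 0.27 to -2.60 ± 0.31.

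**Figure D2:**
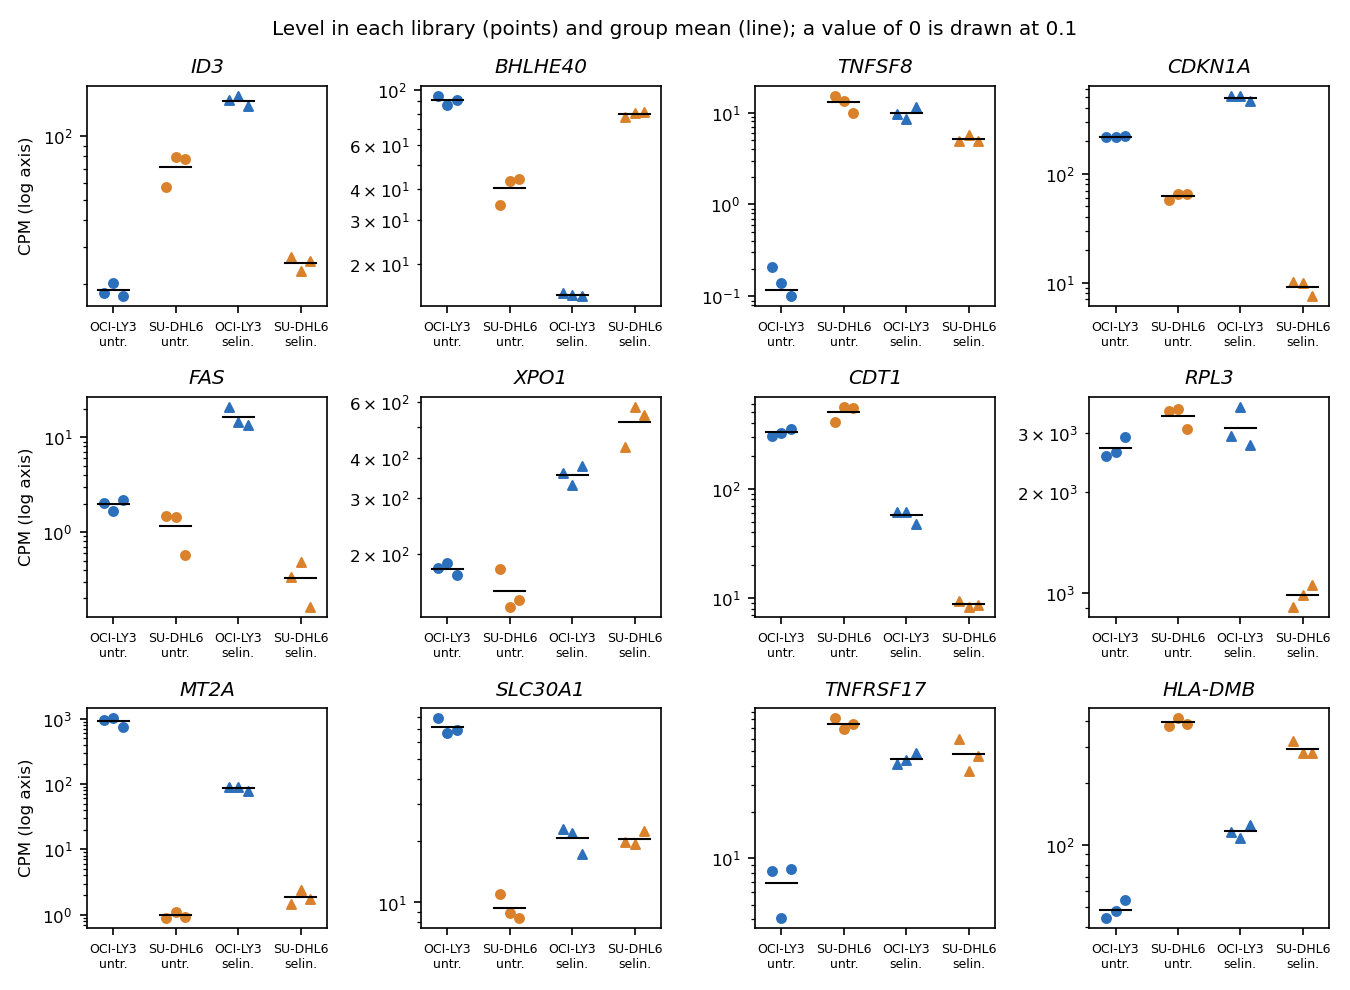
CPM in each of 12 libraries (points, circles untreated, triangles selinexor, blue OCI-LY3, orange SU-DHL6) with group means (lines) on log axes for 12 genes. ID3, BHLHE40 and TNFSF8 change which line is higher, MT2A keeps a difference that narrows, and SLC30A1 and TNFRSF17 meet at one level under the drug.

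Among differences that appeared, FAS, a death receptor and p53 target (chromosome 10, 88990582 to 89015785), was at 2.02, 1.68 and 2.20 CPM in untreated OCI-LY3, 1.49, 1.43 and 0.578 in untreated SU-DHL6, 20.9, 14.4 and 13.4 in treated OCI-LY3 and 0.332, 0.486 and 0.16 in treated SU-DHL6. The untreated lines were within 1 log2 unit of each other (0.74 ± 0.35, not called), and under the drug FAS rose in OCI-LY3 (3.04 ± 0.30) and fell in SU-DHL6 (-1.83 ± 0.43), for a treated difference of 5.60 ± 0.37. The cell adhesion gene MDGA1 came to 3.90 ± 0.29, DPF3, a chromatin remodelling subunit gene, to 3.58 ± 0.17, and GALNT10, which starts O-glycosylation, to 2.70 ± 0.18. The mitochondrial sulfide dioxygenase gene ETHE1 came to 3.17 ± 0.20 and the AP-1 gene FOSB, with replicates over 2-fold apart, to 3.59 ± 0.31. In the other direction, AKAP9, a kinase scaffold of the Golgi and centrosome, was at 13.2, 11.2 and 15.6 CPM in untreated OCI-LY3, 16.1, 10.6 and 14.7 in untreated SU-DHL6, 6.68, 10.8 and 8.91 in treated OCI-LY3 and 51.2, 86.7 and 61.3 in treated SU-DHL6. The untreated lines overlapped, and every treated OCI-LY3 library lay below every untreated one of that line. Treated SU-DHL6 stood far above the other groups, and the treated difference was -2.91 ± 0.24. SMC4, a condensin subunit, came to -2.32 ± 0.14, falling in OCI-LY3 (-1.54 ± 0.13) and rising in SU-DHL6 (0.86 ± 0.13). The zinc finger genes ZNF696 (-2.33 ± 0.39), ZNF84 (-2.14 ± 0.65) and RBAK (-3.73 ± 0.76) and the mRNA export adaptor gene FYTTD1 (-1.70 ± 0.56) followed. Replicates of all 4 genes were over 2-fold apart in at least 1 group, ZNF696 with 3.55, 8.99 and 2.50 CPM in untreated OCI-LY3. The change of ZNF84 was not called without the first or the second treated OCI-LY3 library (-3.092 and -3.086), by limma-voom (-3.03) or with no filter (-3.19), and its treated difference was not called by limma-voom (-1.85). The changes of RBAK and FYTTD1 were not called under 11 alternatives each. The treated difference of FYTTD1 was not called without the first, the second or the third treated OCI-LY3 library (-1.72, -1.66 and -1.65).

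Among differences that vanished, TNFRSF17, which encodes the plasma cell receptor BCMA (chromosome 16, 11965107 to 11968068), was at 8.22, 4.07 and 8.52 CPM in untreated OCI-LY3, 81.7, 69.4 and 74.3 in untreated SU-DHL6, 41.0, 43.6 and 48.5 in treated OCI-LY3 and 59.9, 37.0 and 46.1 in treated SU-DHL6. Only untreated OCI-LY3 was low, and the difference went from -3.44 ± 0.25 to -0.10 ± 0.22. It rose in OCI-LY3 (2.68 ± 0.24), and the total-count scaling gave a called treated difference of -0.55. CTNS, the lysosomal cystine exporter gene, went from -2.36 ± 0.15 to 0.16 ± 0.13, CRYZ, a quinone reductase gene, from -2.44 ± 0.18 to 0.20 ± 0.16, and C3orf20 from -5.36 ± 0.48 to 0.22 ± 0.36. For CRYZ the GC and length offsets gave a called treated difference of 0.80. MYB, a progenitor transcription factor gene, reached the same end from the other line: it was at 0.836, 1.61 and 2.28 CPM in untreated OCI-LY3 and fell in SU-DHL6 from 9.29, 7.02 and 8.52 to 0.831, 1.46 and 0.856 CPM. The amino acid transporter gene SLC7A6, which shares exons with another gene, went from -2.31 ± 0.29 to 0.42 ± 0.27, with replicates over 2-fold apart in untreated SU-DHL6 (165, 67.7 and 84.0 CPM). Its treated libraries did not overlap, at 99.2, 103 and 104 CPM in OCI-LY3 and 71.9, 79.0 and 77.3 in SU-DHL6. The treated difference was called without the first untreated SU-DHL6 library (0.429) and in a fit of the treated libraries alone (0.427). Of those higher in untreated OCI-LY3, RASGRF2, a RAS exchange factor gene, went from 4.0 ± 0.46 to 0.76 ± 0.49, the heat shock factor gene HSF4 from 2.53 ± 0.22 to -0.02 ± 0.21 and RGMB from 2.0 ± 0.15 to -0.03 ± 0.14. The treated differences of HSF4 (-0.52, GC and length offsets) and RGMB (-0.48, total counts) were each called under that 1 alternative. ZBED6, whose exons lie almost wholly within another gene's, went from 3.17 ± 0.97 to -2.09 ± 0.94 with replicates over 2-fold apart. Its treated difference was called without the first (-2.53) or the second (-2.54) treated SU-DHL6 library, by DESeq2 (-2.06) and with total-count scaling (-2.57), and its untreated one was not without the first (3.12) or the second (2.97) untreated SU-DHL6 library. ARRDC3, an arrestin-domain gene of FOXO programmes, rose in both lines, with responses of 3.06 ± 0.14 in OCI-LY3 and 3.84 ± 0.15 in SU-DHL6. Its difference went from 0.75 ± 0.14 to -0.03 ± 0.13, and the GC and length offsets gave a called treated difference of 0.50 and total-count scaling a called one of -0.47.

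Zinc-responsive genes lost much of the gap between the lines. Metallothioneins are small cysteine-rich proteins that bind zinc and copper, SLC30A1 encodes the exporter that removes zinc from the cell, and MTF1 is the zinc-sensing factor that switches them on. It binds metal response elements, whose core was searched as TGCACNC and TGCGCNC on both strands of the 250 bases upstream of the listed start. At least 1 match was found in 24.8% of 35116 RefSeq promoters of GRCh38.p14, and 3 or more in 1.58%. The RefSeq table holds promoters of MT2A, MT1X and SLC30A1, shown because these genes moved together, with matches in capitals. MT2A has 7 matches, MT1X 4 and SLC30A1 1.
MT2A (chr16:56608334-56608583, forward strand): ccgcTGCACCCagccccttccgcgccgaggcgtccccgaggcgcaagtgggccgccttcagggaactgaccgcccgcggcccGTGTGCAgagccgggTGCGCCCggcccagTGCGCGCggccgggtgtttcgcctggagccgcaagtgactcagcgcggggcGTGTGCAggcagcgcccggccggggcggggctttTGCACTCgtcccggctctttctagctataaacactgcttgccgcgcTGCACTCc
MT1X (chr16:56682220-56682469, forward strand): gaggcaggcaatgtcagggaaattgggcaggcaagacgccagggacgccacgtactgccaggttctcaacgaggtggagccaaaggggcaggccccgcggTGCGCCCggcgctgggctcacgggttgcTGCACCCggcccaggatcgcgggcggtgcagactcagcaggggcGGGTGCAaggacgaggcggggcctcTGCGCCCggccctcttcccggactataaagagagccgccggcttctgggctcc
SLC30A1 (chr1:211579162-211579411, reverse strand): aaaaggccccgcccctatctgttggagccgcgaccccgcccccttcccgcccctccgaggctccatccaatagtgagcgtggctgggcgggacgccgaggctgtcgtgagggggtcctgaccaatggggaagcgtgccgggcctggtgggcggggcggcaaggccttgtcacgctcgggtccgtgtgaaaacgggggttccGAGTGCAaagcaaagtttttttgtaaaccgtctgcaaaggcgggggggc
A match is a run of letters, not a bound site.

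MT2A was at 938, 1020.3 and 755 CPM in untreated OCI-LY3, 0.882, 1.12 and 0.939 in untreated SU-DHL6, 88.7, 88.4 and 79.3 in treated OCI-LY3 and 1.44, 2.38 and 1.76 in treated SU-DHL6. It fell in OCI-LY3 (-3.40 ± 0.14) and rose in SU-DHL6 (0.92 ± 0.24), and the lines remained apart, by 9.83 ± 0.20 untreated and 5.51 ± 0.17 treated. MT1E narrowed from 11.09 ± 0.36 to 4.88 ± 0.31 and MT1X from 4.40 ± 0.17 to 1.05 ± 0.15. MT1F was at 20.3, 22.1 and 20.6 CPM in untreated OCI-LY3, 1.90, 2.42 and 1.81 in untreated SU-DHL6, 5.98, 7.37 and 7.17 in treated OCI-LY3 and 6.70, 5.41 and 5.88 in treated SU-DHL6. The treated lines overlapped for MT1F, whose difference went from 3.35 ± 0.17 to 0.19 ± 0.16. SLC30A1 was at 78.8, 66.3 and 68.8 CPM in untreated OCI-LY3, 11.1, 8.89 and 8.38 in untreated SU-DHL6, 22.7, 21.9 and 17.1 in treated OCI-LY3 and 19.7, 19.2 and 22.2 in treated SU-DHL6. From opposite sides the lines met at one level of SLC30A1, with differences of 2.92 ± 0.15 and 0.01 ± 0.14, and the treated value was -0.44 with total-count scaling and 0.51 with GC and length offsets, both called. Of the 6 tested genes of the metallothionein and zinc-response list, 5 were higher in untreated and 3 in treated OCI-LY3, and the change was called more negative for 5. The list's median went from 3.88 to 0.62. MT1A, MT1G, MT1H, MT1M and MT3 had 0 counts in every library.

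Ribosomal protein genes went from slightly lower to higher in OCI-LY3. All 79 cytosolic ribosomal protein genes were tested: 68 were higher and 1 lower in treated OCI-LY3, against 11 and 38 untreated, and the median log2 difference went from -0.32 to 1.08. The change was called more positive for 72 and more negative for 0. Differences reversed for 28 of them, appeared for 26 and remained for 12. RPL3 (chromosome 22, 39312882 to 39320389), a protein of the large subunit, was at 2569, 2638 and 2919 CPM in untreated OCI-LY3, 3501, 3543 and 3086 in untreated SU-DHL6, 2956, 3598 and 2776 in treated OCI-LY3 and 905, 986 and 1054 in treated SU-DHL6. Treated SU-DHL6 stood apart below the other 3 groups, and the difference went from -0.32 ± 0.11 to 1.66 ± 0.11. The response of RPL3 was 0.20 ± 0.11 in OCI-LY3, not called, and -1.78 ± 0.12 in SU-DHL6. RPS14 went from -0.33 ± 0.13 to 1.45 ± 0.13, RPL13A from -0.43 ± 0.13 to 1.29 ± 0.13 and RPS19 from -0.78 ± 0.16 to 1.07 ± 0.16. RPL9 was already higher untreated (4.02 ± 0.11) and stayed so (4.49 ± 0.11). RPS12 was the 1 gene called lower (-0.33 ± 0.13), a call lost under 8 alternatives. Replicates of 11 members differed over 2-fold. Reads of these genes and of their many processed pseudogenes may have been split by the counting, and the pseudogene share of counts moved the same way between the treated lines (8.16 to 8.45% against 5.13 to 6.05%). Its part in the result was not tested. The median was 0.64 with total-count scaling and 1.08 with GC and length offsets.

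Many mRNAs of the translation machinery start with a C followed by pyrimidines, the terminal oligopyrimidine start that couples their translation to mTOR signalling. A C followed by 4 bases that are each C or T was looked for exactly at the listed start, on the transcribed strand. It was found at 47 of 78 RefSeq starts of ribosomal protein genes (60.3%) and at 4.07% of all 35116 starts. Below, 10 bases before and 15 from the listed start are shown for genes with large changes, with the 5 bases in capitals where they match.
RPS14 (chr5:150449725-150449749, reverse strand): ccctcccactCTCTCtttccggtgt
RPS19 (chr19:41860245-41860269, forward strand): ccccgtcgttCCCTTtcccctggct
RPL13A (chr19:49487598-49487622, forward strand): aaacctcctcCTTTTccaagcggct
EEF2 (chr19:3985449-3985473, reverse strand): cgtcagcgttCTCTTccgccgtcgt
TPT1 (chr13:45341169-45341193, reverse strand): ctgagtcggcCTTTTccgcccgctc
RPL3 (chr22:39319609-39319633, reverse strand): gccgaccggcctctaccggcgggat
RPL3 has no match at its listed start and moved with the others. RPS19 has another listed start (chr19:41860394-41860418, forward strand), which has no match.

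Among translation factors the median change was higher with this start than without it, and among ribosomal protein genes both medians were alike in size; neither difference was tested. Of 32 translation factor genes, 19 were higher and 6 lower in treated OCI-LY3, against 9 and 16 untreated, and the median went from -0.16 to 0.69. The 11 with a pyrimidine start had a median change of 1.12, called more positive for 9 and more negative for 0. The 12 with a listed start of another kind had a median change of -0.21, with 3 called more positive and 4 more negative. The 9 without a promoter in the table had a median change of 0.68, with 6 and 1. Outside both lists, 695 protein-coding genes with the start had a median change of 0.21, called more positive for 218 and more negative for 112. Over all 12705 protein-coding genes tested, the median change was 0.05, called more positive for 2767 and more negative for 2291. Among ribosomal protein genes the median change was 1.34 for 47 genes with the start and 1.28 for 16 without it. These are descriptions of genes, which are not independent replicates, and the split was made after the values were seen. EEF2, the elongation factor that moves the ribosome along the mRNA, was at 13879, 14222 and 15861 CPM in untreated OCI-LY3, 11530.0, 14724 and 14597 in untreated SU-DHL6, 16712, 15978 and 13910.0 in treated OCI-LY3 and 3305, 3354 and 3293 in treated SU-DHL6. It fell in SU-DHL6 only by call, from a shared level to a treated difference of 2.23 ± 0.12. TPT1, a growth-related protein gene, went from -0.88 ± 0.09 to 0.92 ± 0.09.

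**Figure D3:**
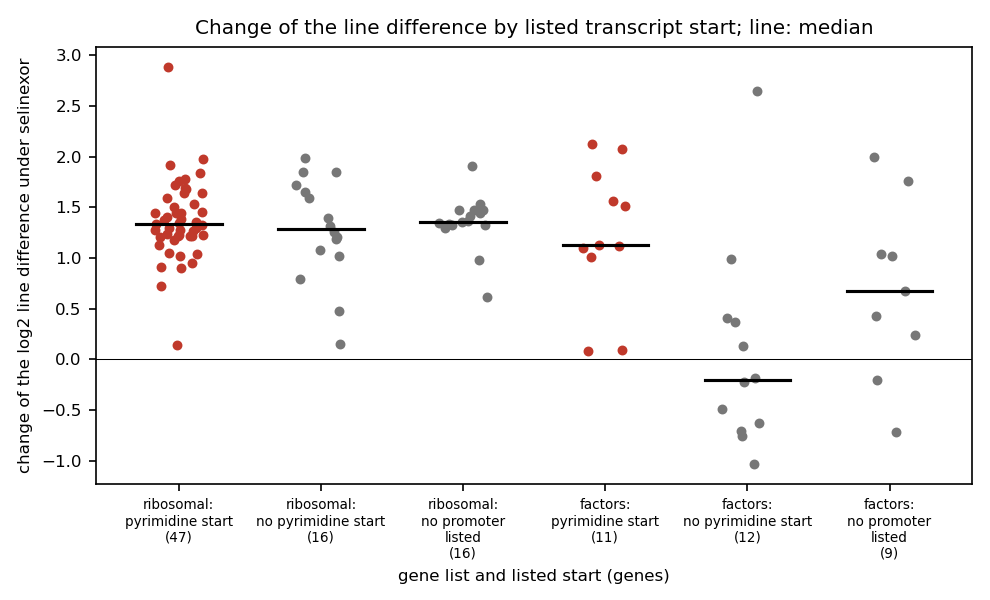
Change of the log2 line difference under selinexor for each ribosomal protein and translation factor gene (points) with the group median (line), split by whether a listed RefSeq start begins with C and 4 pyrimidines. Medians are 1.34 and 1.28 for ribosomal protein genes with and without it and 1.12 and -0.21 for translation factors.

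Genes that build ribosomes moved the other way. Of 44 ribosome biogenesis genes, 6 were higher and 26 lower in treated OCI-LY3, against 21 and 10 untreated, and the change was called more negative for 30 and more positive for 0. The median went from 0.26 to -0.43. NCL, the nucleolar protein nucleolin, was at 670.2, 642 and 638 CPM in untreated OCI-LY3, 618, 516 and 557 in untreated SU-DHL6, 432, 411 and 449 in treated OCI-LY3 and 953, 1031 and 929 in treated SU-DHL6. The treated lines stood apart, with NCL down (-0.59 ± 0.09) in OCI-LY3 and up (0.78 ± 0.09) in SU-DHL6, for a treated difference of -1.17 ± 0.09. The nucleolar helicase gene DDX21 went from -0.05 ± 0.11 to -1.57 ± 0.12 and NOP58, a small nucleolar ribonucleoprotein gene, from 0.56 ± 0.10 to -1.15 ± 0.10.

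Genes of the S phase and of mitosis came apart between the lines in opposite directions. Of 48 DNA replication and E2F target genes, 33 were higher and 9 lower in treated OCI-LY3, against 9 and 27 untreated, and the median went from -0.45 to 0.72. The change was called more positive for 39 and more negative for 0, and 14 differences reversed. CDT1, which licenses replication origins (chromosome 16, 88803213 to 88809258), was at 307, 327 and 349 CPM in untreated OCI-LY3, 406, 559 and 552 in untreated SU-DHL6, 62.0, 61.4 and 47.8 in treated OCI-LY3 and 9.52, 8.27 and 8.72 in treated SU-DHL6. It fell in both lines, with responses of -2.52 ± 0.14 in OCI-LY3 and -5.84 ± 0.16 in SU-DHL6, so that the difference went from -0.63 ± 0.13 to 2.69 ± 0.15. E2F2, an activator of S-phase genes, went from -1.53 ± 0.11 to 1.73 ± 0.13. TK1, which salvages thymidine, went from -1.07 ± 0.11 to 1.87 ± 0.12 and the sliding clamp gene PCNA from -0.48 ± 0.10 to 1.52 ± 0.11. CDC45 and MCM5, parts of the replicative helicase, widened to 3.63 ± 0.15 and 3.22 ± 0.11. Another helicase subunit, MCM6, remained lower at -1.58 ± 0.10.

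Of 48 mitosis genes, 9 were higher and 30 lower in treated OCI-LY3, against 13 and 15 untreated. The median went from 0.00 to -0.51, and the change was called more negative for 22 and more positive for 6. CENPF, a kinetochore protein, was at 90.1, 88.5 and 80.1 CPM in untreated OCI-LY3, 67.9, 40.3 and 48.2 in untreated SU-DHL6, 15.9, 17.1 and 18.3 in treated OCI-LY3 and 51.4, 86.5 and 62.1 in treated SU-DHL6. It fell in OCI-LY3 (-2.33 ± 0.21) while the response in SU-DHL6 was 0.35 ± 0.19 (not called), and the difference went from 0.73 ± 0.19 to -1.96 ± 0.21. KIF14, a motor of cytokinesis, went from 0.05 ± 0.22 to -2.09 ± 0.24. HMMR, a spindle protein, went from 1.72 ± 0.14 to -0.63 ± 0.14, a treated difference that was -0.08 and not called with GC and length offsets. CDCA5, which holds sister chromatids together, was among the 6 whose difference became more positive, going from -0.67 ± 0.09 to 1.04 ± 0.09.

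**Figure D4:**
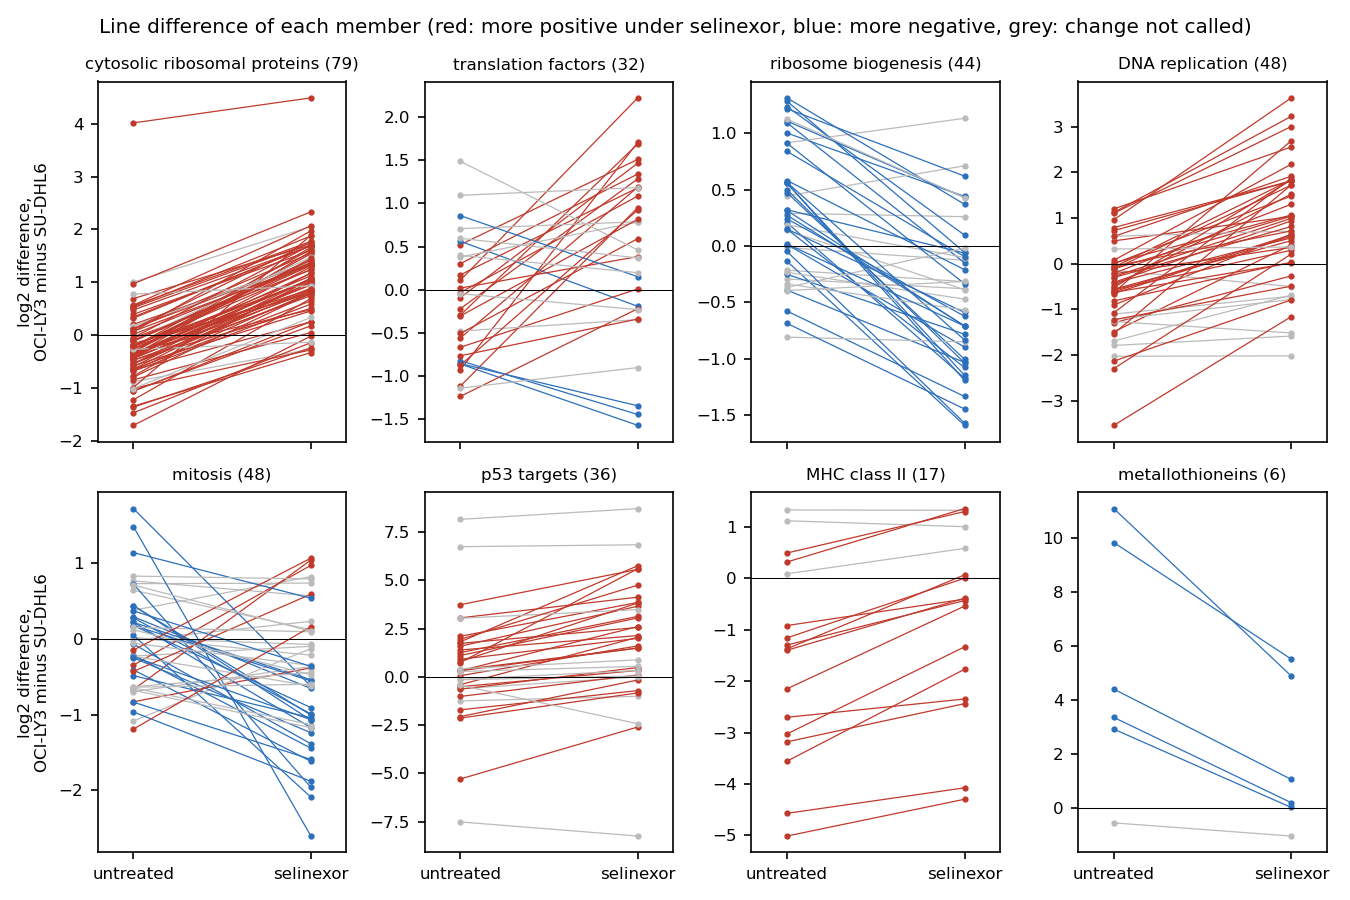
Log2 difference between the lines of each member of 8 gene lists, untreated and under selinexor, with the number of tested members in each title. Most lines run upward for ribosomal proteins, DNA replication, p53 targets and MHC class II and downward for ribosome biogenesis and zinc-responsive genes (titled metallothioneins), while mitosis and translation factor genes go both ways.

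Targets of p53, which halts the cell cycle and starts apoptosis, came to lie higher in OCI-LY3. Of 36, 24 were higher and 5 lower in treated OCI-LY3, against 18 and 11 untreated, with the change called more positive for 25 and more negative for 0. The median went from 0.34 to 1.80. CDKN1A, the cell cycle inhibitor p21 (chromosome 6, 36676460 to 36687339), was at 217, 219 and 221 CPM in untreated OCI-LY3, 57.5, 65.3 and 64.4 in untreated SU-DHL6, 516, 512 and 459.9 in treated OCI-LY3 and 10.0, 9.95 and 7.49 in treated SU-DHL6. It rose in OCI-LY3 (1.18 ± 0.11) and fell in SU-DHL6 (-2.77 ± 0.12), and the difference widened from 1.81 ± 0.11 to 5.76 ± 0.13. PMAIP1, the BH3-only protein NOXA, went from 0.79 ± 0.12 to 3.83 ± 0.13, BAX, a pore former of mitochondria, from 0.32 ± 0.12 to 2.60 ± 0.12 and the DNA damage sensor gene DDB2 from -0.41 ± 0.13 to 2.05 ± 0.13. TP53INP1 remained lower, narrowing from -5.30 ± 0.23 to -2.60 ± 0.19.

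Of 28 genes of the BCL2 family and apoptosis, 17 were higher and 6 lower in treated OCI-LY3, against 11 and 11 untreated, with medians of 0.63 and -0.06. Inhibitors and promoters of apoptosis were both among those that were higher. The shares over all genes tested were 36.2% higher and 35.8% lower treated, and 33.6% and 33.7% untreated. BCL2, the inhibitor targeted by venetoclax, was at 884, 867 and 879 CPM in treated OCI-LY3 and 273, 330.1 and 315 CPM in treated SU-DHL6, with differences of 1.59 ± 0.09 and 1.52 ± 0.09. BCL2A1, an NF-kB-induced inhibitor, widened from 5.57 ± 0.17 to 7.97 ± 0.20. BCL2L1, which encodes BCL-XL and shares exons with another gene, reversed from -0.58 ± 0.11 to 2.02 ± 0.11. MCL1 (chromosome 1, 150574551 to 150579738), a short-lived inhibitor, was at 300.5, 297 and 308 CPM in untreated OCI-LY3, 510.0, 431 and 450.4 in untreated SU-DHL6, 460.4, 437 and 471 in treated OCI-LY3 and 360.1, 335 and 359 in treated SU-DHL6. The lines did not overlap in either state and swapped order, from -0.62 ± 0.09 to 0.38 ± 0.09, and with total-count scaling the treated value was -0.07 and was not called. BID, which links death receptors to mitochondria, stayed at 4.93 ± 0.15.

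Most NF-kB target genes kept the direction of their difference, while its size changed for many. Of 20 NF-kB target genes, 16 were higher and 3 lower in treated OCI-LY3 (15 and 3 untreated), with medians of 3.26 and 3.45, and 17 differences remained. The change was called for 11 of them, 7 more positive and 4 more negative. CCND2, a cyclin of activated B cells, was at 595, 598 and 628 CPM in treated OCI-LY3 and 0.609, 0.919 and 0.695 CPM in treated SU-DHL6 and CD44, an adhesion receptor, at 604, 588 and 671 CPM in treated OCI-LY3 and 1.33, 0.324 and 0.695 CPM in treated SU-DHL6. TNFAIP3, which encodes the NF-kB feedback inhibitor A20, widened from 3.38 ± 0.10 to 5.16 ± 0.11. Of 15 subunits and inhibitors, 12 were higher and 1 lower, with a median of 1.16, and the change was called more positive for 7 and more negative for 2. NFKBIA, the inhibitor that XPO1 exports, differed by 0.92 ± 0.14 and 1.63 ± 0.15, and NFKB2, of the alternative pathway, by 0.80 ± 0.11 and 1.90 ± 0.11. RELB, partner of NFKB2, reversed from -0.66 ± 0.18 to 1.51 ± 0.19. REL, the 1 lower gene, appeared at -1.36 ± 0.15 and shares exons with another gene. Of 16 STAT3 and PIM genes, 15 were higher and 1 lower, with medians of 2.24 treated and 2.29 untreated. STAT3 narrowed from 2.35 ± 0.10 to 1.59 ± 0.10 and the interleukin-10 receptor gene IL10RA widened from 3.77 ± 0.23 to 5.16 ± 0.25.

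Of 12 plasma cell genes, 6 were higher and 5 lower in treated OCI-LY3, against 36.2% and 35.8% over all genes tested. The plasma cell genes had medians of 1.07 treated and 1.16 untreated. PRDM1, which encodes the plasma cell repressor BLIMP1, was at 37.7, 35.3 and 32.8 CPM in treated OCI-LY3 and 0.111, 0.108 and 0.214 CPM in treated SU-DHL6. XBP1, which expands the secretory pathway, remained higher at 3.15 ± 0.16, and its change (0.61 ± 0.22) was not called under 15 alternatives, for example 0.42 without the third untreated SU-DHL6 library. The surface receptors CD38 and CD27 remained lower at -3.38 ± 0.10 and -9.13 ± 0.23. JCHAIN, which joins secreted antibodies, was at 0.697, 0.421 and 0.514 CPM in untreated OCI-LY3, 185, 160.3 and 161 in untreated SU-DHL6, 32.6, 33.0 and 34.1 in treated OCI-LY3 and 278, 300.2 and 214 in treated SU-DHL6. Untreated OCI-LY3 had almost none, and the difference narrowed from -8.25 ± 0.20 to -2.99 ± 0.13.

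Of 20 B-cell receptor signalling genes, 13 were higher and 4 lower in treated OCI-LY3, against 11 and 7 untreated, with medians of 0.71 treated and 0.39 untreated. The shares over all genes tested were 36.2% higher and 35.8% lower treated, and 33.6% and 33.7% untreated. SYK, a kinase of the pathway, was at 1737, 1703 and 1716 CPM in treated OCI-LY3 and 125, 124 and 133 CPM in treated SU-DHL6. PRKCB, which passes the signal to NF-kB, had 0 counts in untreated OCI-LY3 and 0.233, 0 and 0.0755 CPM in treated OCI-LY3, against 15.7, 18.9 and 17 in treated SU-DHL6. PRKCB stayed near 0 in OCI-LY3, and without the first treated OCI-LY3 library the change of its difference was not called. Of 20 chemokine and homing genes, 7 were higher and 9 lower in treated OCI-LY3, against 36.2% and 35.8% over all genes tested. The list's median of -0.51 was 0.01 without genes that share exons with another gene. It was -0.90 without the first and -0.29 without the third treated OCI-LY3 library, and -0.95 with total-count scaling and -0.29 with GC and length offsets. CXCL13, the B-cell attractant (chromosome 4, 77511753 to 77611834), was at 0.975, 0.421 and 0.808 CPM in untreated and 121, 126 and 149 in treated OCI-LY3, with 0 counts in SU-DHL6. It was thus at least 10.9-fold higher untreated and at least 2429-fold higher treated, against 3 counts over the group. CCR7, which guides cells to lymph nodes, widened from 4.54 ± 0.12 to 6.16 ± 0.12. CXCR4, which holds B cells in the dark zone, differed by -2.93 ± 0.10.

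MHC class II genes, which present antigen to helper T cells, shifted upward in OCI-LY3 relative to SU-DHL6. Of 17 MHC class II genes, 5 were higher and 10 lower in treated OCI-LY3, against 3 and 12 untreated, with the change called more positive for 14 and more negative for 0. The median went from -1.37 to -0.40. HLA-DMB, which loads peptides, was at 44.0, 47.5 and 54.1 CPM in untreated OCI-LY3, 380.5, 415 and 390.5 in untreated SU-DHL6, 116, 108 and 126 in treated OCI-LY3 and 320.3, 280.1 and 281 in treated SU-DHL6. OCI-LY3 was the lower line throughout, with the difference narrowing from -3.03 ± 0.11 to -1.33 ± 0.10. HLA-DOB narrowed from -3.56 ± 0.13 to -1.77 ± 0.12. The differences of HLA-DRA (-1.16 ± 0.12 to 0.00 ± 0.12) and HLA-DMA (-1.37 ± 0.12 to 0.07 ± 0.12) vanished, and with total-count scaling both were called lower when treated (-0.44 and -0.38). HLA-DQB1 remained lower at -4.08 ± 0.11. CD74, the invariant chain, appeared at 1.36 ± 0.16, whereas CIITA, which switches on the class II genes, differed by 1.33 ± 0.10 and 1.33 ± 0.10. Of 18 MHC class I genes, 12 were higher and 4 lower, with medians of 1.21 treated and 1.07 untreated. Their change was called more positive for 5 and more negative for 3, against 19.9% and 17% over all genes tested, and HLA-B was higher by 3.32 ± 0.10.

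Heat shock genes came to lie lower in OCI-LY3, and endoplasmic reticulum chaperones lost part of their excess there. Of 23 heat shock genes, 3 were higher and 13 lower in treated OCI-LY3, against 8 and 6 untreated, with medians of -0.56 and -0.10. HSP90AA1, the inducible HSP90, was at 444, 452 and 444 CPM in untreated OCI-LY3, 335, 264 and 293 in untreated SU-DHL6, 647, 646 and 583 in treated OCI-LY3 and 1004, 946 and 812 in treated SU-DHL6. It rose in both lines and more so in SU-DHL6, so that the difference reversed from 0.59 ± 0.11 to -0.56 ± 0.11. HSPA8, the constitutive HSP70, went from 1.05 ± 0.12 to -0.12 ± 0.12, a treated value that was -0.57 and called with total-count scaling. HSF1, the factor that drives these genes, went from -0.19 ± 0.18 (not called) to 1.29 ± 0.18. Of 28 endoplasmic reticulum folding genes, 12 were higher and 10 lower in treated OCI-LY3 and 17 and 5 untreated. Over all genes tested, 36.2% were higher and 35.8% lower treated, and 33.6% and 33.7% untreated. The change of the folding genes was called more negative for 14 and more positive for 3. Their median went from 0.78 to 0.08, a treated value that was -0.37 with total-count scaling. HSPA5, the chaperone BiP, was at 285, 285 and 286 CPM in untreated OCI-LY3, 143, 122 and 131 in untreated SU-DHL6, 173, 175 and 186 in treated OCI-LY3 and 333, 315 and 334 in treated SU-DHL6. The lines swapped order, from 1.11 ± 0.08 to -0.88 ± 0.08. HSP90B1 narrowed from 2.96 ± 0.11 to 1.24 ± 0.10.

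Of 39 nuclear transport genes, 12 were higher and 20 lower in treated OCI-LY3, against 12 and 10 untreated, with the change called more negative for 18 and more positive for 6. The median went from 0.11 to -0.53, and the treated value was -0.11 with GC and length offsets. The shares over all genes tested were 36.2% higher and 35.8% lower treated, with the change more negative for 17% and more positive for 19.9%. RANBP2, a pore protein that binds RAN, was at 75.9, 75.8 and 66.6 CPM in untreated OCI-LY3, 127, 80.8 and 90.6 in untreated SU-DHL6, 89.8, 93.5 and 87.1 in treated OCI-LY3 and 236, 331 and 264 in treated SU-DHL6. Treated SU-DHL6 was the highest group, and the difference widened from -0.45 ± 0.16 to -1.62 ± 0.16. KPNB1, the import receptor importin beta, appeared at -0.70 ± 0.12. RANBP3, a cofactor of XPO1, went the other way, from 0.44 ± 0.10 to 1.66 ± 0.10.

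Of 25 cholesterol synthesis genes, 11 were higher and 8 lower in treated OCI-LY3, against 4 and 12 untreated. Over all genes tested, 36.2% were higher and 35.8% lower treated. The change of the cholesterol synthesis genes was called more positive for 15 and more negative for 0. The median went from -0.24 to 0.14, a value that was -0.31 with total-count scaling. FDFT1, which commits the pathway to sterols, appeared at 1.97 ± 0.10, and LSS, which closes the sterol rings, widened from 1.01 ± 0.12 to 2.64 ± 0.13. Of 30 glycolysis and hypoxia genes, 17 were higher and 8 lower in treated OCI-LY3, against 18 and 4 untreated, with medians of 0.46 and 0.78. HK2, the hexokinase of fast-growing cells, was at 186, 184 and 186 CPM in untreated OCI-LY3, 73.9, 73.2 and 69.2 in untreated SU-DHL6, 46.6, 43.5 and 45.0 in treated OCI-LY3 and 103, 117 and 116 in treated SU-DHL6. It was the higher in OCI-LY3 untreated and the lower there when treated, with differences of 1.36 ± 0.09 and -1.31 ± 0.09. The angiogenic factor gene VEGFA appeared lower at -1.53 ± 0.16.

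**Figure D5:**
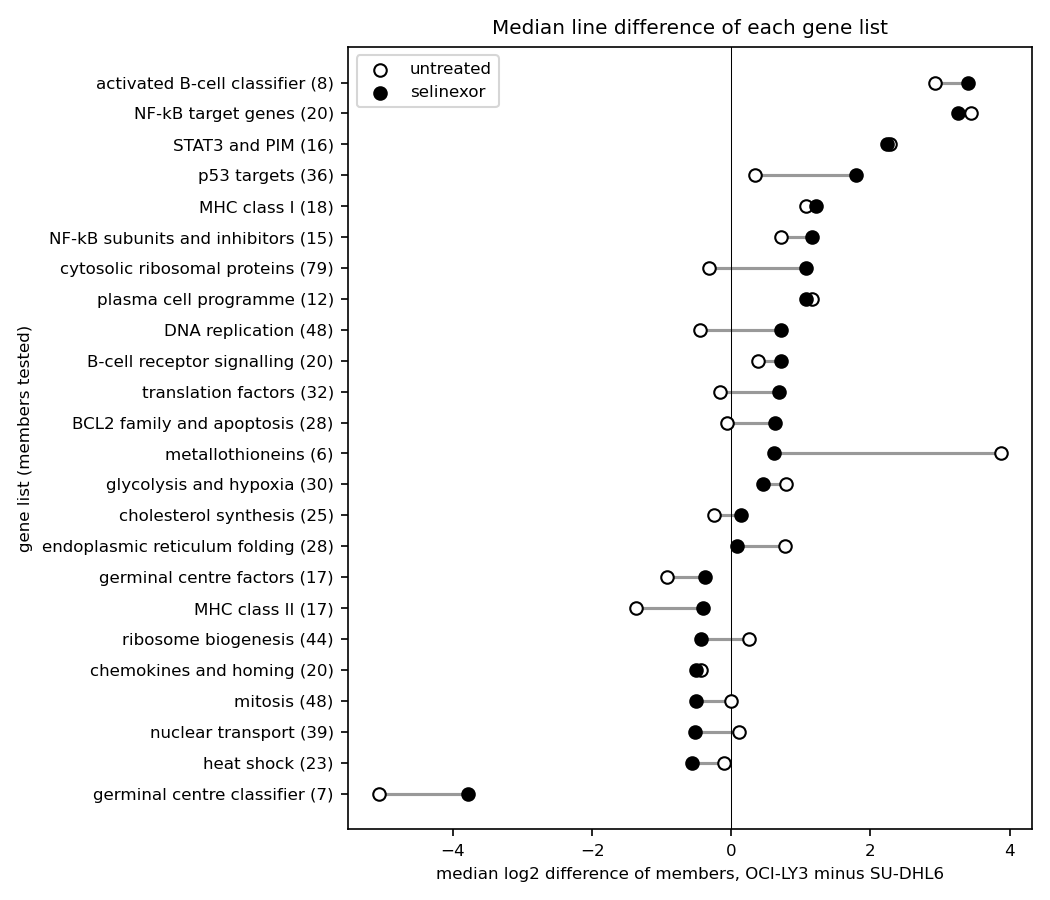
Median log2 difference between the lines over the tested members of 24 gene lists (number in brackets), untreated (open circles) and under selinexor (filled circles). The classifier, NF-kB target and STAT3 lists keep their side of 0, whereas ribosomal proteins, DNA replication, translation factors, ribosome biogenesis and nuclear transport cross it.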

How the data were processed

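RNA sequencing of 12 libraries was used as whole-number counts per gene, which the authors deposited in one table with FPKM values beside them. The FPKM values, so named per the file headers, were checked against the counts and used only for levels of marker lists. The submitters' processing notes name GRCm38 and mm10, whereas the gene IDs are human: 58039 of 58302 are in GENCODE 29, whose GRCh38 coordinates are given. For the aligner and counter: not given in the sources used here. Library totals were 14210200 to 16405842 counts, and replicates correlated at 0.981 to 0.986.

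Counts were fitted in R 4.3.3 with edgeR 4.0.16 (filterByExpr, TMM, quasi-likelihood F test, all 12 libraries in 4 groups), with Benjamini-Hochberg adjustment over 16474 genes. Standard errors are the log2 value divided by the root of F. The script was tested on simulated data. Genes were typed as noisy where replicates above 10 CPM differed over 2-fold. Floors use 3 counts over a group.

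The gene groups and lists were chosen with earlier results of these data known. Named are the 6 largest values per direction and class among protein-coding genes with a group mean log2 CPM of at least 3. Without that floor, the rule also names up to 2 list members per direction with the smallest adjusted p, and a set always named (XPO1, MYC, BCL2, MCL1, BCL6, CDKN1A, NFKBIA, IRF4, PRDM1, MME, TNFRSF13B, CXCL13, ARRDC3, CDT1, RPL3). Of 141 genes considered, 103 met this rule and the others were chosen after their values were seen. Alternatives were RLE, upper-quartile and total-count scaling, DESeq2 1.42.0, limma-voom (limma 3.58.1), filters, thresholds, the treated libraries alone, a replicate block, exclusion of noisy genes and of each library. Offsets for GC content and length and the exclusion of genes with shared exons were chosen after seeing the data. Promoters are from RefSeq on GRCh38.p14.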

Additional observations from a re-analysis of the deposited data

Results flagged for a closer look

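The change under selinexor of the log2 difference between the lines, which equals the response of OCI-LY3 minus that of SU-DHL6, was called by edgeR (adjusted p under 0.05) for 116 of 141 genes considered for naming above. Over all genes tested it was called for 36.9%. Many of the 141 were chosen by the size of this change or after their values were seen, so the higher share follows from the choice. Each value is given in brackets. Groups of 3 libraries are too small for a check of single outlying libraries.

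The difference became more positive for AC007240.1 (7.66), TNFSF8 (7.60), OLFML2A (6.05), KCNJ11 (5.99), C3orf20 (5.58), JCHAIN (5.26), FAS (4.87) and PRKCB (4.83). The next values in size were ID3 (4.46), ACTG2 (4.22), MDGA1 (4.13), SLC1A4 (4.08), CDKN1A (3.95), DPF3 (3.90), TNFRSF17 (3.33) and CDT1 (3.32). These were followed by E2F2 (3.25), SERPINA9 (3.16), PMAIP1 (3.04), GALNT10 (2.95), TK1 (2.94), FOSB (2.93), ETHE1 (2.88) and MYB (2.77). Further values were SLC7A6 (2.74), TP53INP1 (2.70), CDC45 (2.66), CRYZ (2.64), BCL2L1 (2.60), CTNS (2.52), DDB2 (2.46) and BCL2A1 (2.40). Below these lay CD79B (2.32), BAX (2.29), RELB (2.17), EEF2 (2.12), MCM5 (2.10), PCNA (2.01), RPL3 (1.98) and FDFT1 (1.93). In the same direction came BACH2 (1.92), MME (1.91), RPS19 (1.84), TPT1 (1.80), HLA-DOB (1.79), TNFAIP3 (1.78), RPS14 (1.78) and RPL13A (1.72). Still smaller were CDCA5 (1.71), HLA-DMB (1.69), LSS (1.63), CCR7 (1.62), ITPKB (1.5), HSF1 (1.48), HLA-DMA (1.44) and IL10RA (1.39). The remaining values were RANBP3 (1.21), HLA-DRA (1.16), NFKB2 (1.10), CD74 (1.04), CD22 (1.03), RPS12 (1.02), MCL1 (1.00) and SYK (0.98). The next values in size were TNFRSF13B (0.87), CYB5R2 (0.83), CD38 (0.79), CXCR4 (0.72), NFKBIA (0.72), MS4A1 (0.70), FOXP1 (0.64) and XBP1 (0.61). These were followed by HLA-DQB1 (0.50), RPL9 (0.47) and HLA-B (0.44).

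The difference became more negative for MT1E (-6.20), ZBED6 (-5.26), MT2A (-4.32), ACOT1 (-4.26), CENPE (-4.09), BHLHE40 (-3.57), MT1X (-3.35) and GOLGA4 (-3.34). The next values in size were ZNF696 (-3.31), RASGRF2 (-3.24), ZNF84 (-3.17), MT1F (-3.16), RBAK (-3.13), ESF1 (-3.12), SLC30A1 (-2.90) and AKAP9 (-2.86). These were followed by FOXC1 (-2.83), CENPF (-2.69), HK2 (-2.67), HSF4 (-2.54), FYTTD1 (-2.51), SMC4 (-2.40), HMMR (-2.35) and KIF14 (-2.14). Further values were RGMB (-2.02), HSPA5 (-2.00), HSP90B1 (-1.72), NOP58 (-1.70), DDX21 (-1.52), CCND2 (-1.39), NCL (-1.38) and VEGFA (-1.38). Below these lay REL (-1.21), RANBP2 (-1.17), HSPA8 (-1.17), HSP90AA1 (-1.15), KPNB1 (-0.84), XPO1 (-0.78), ARRDC3 (-0.77) and STAT3 (-0.76). In the same direction came IRF4 (-0.48). The call for XBP1 was lost under 15 alternatives, for RBAK and FYTTD1 under 11 each, for CD22 under 9 and for ZNF84 under 4. Total-count scaling also lost the calls for HLA-B, HLA-DQB1, NFKBIA, RPL9, FOXP1, CXCR4, CYB5R2 and MS4A1. GC and length offsets lost those for HLA-B, NFKBIA and XPO1, and no filter that for HLA-DQB1. Calls for HLA-B, HLA-DQB1 and RPL9 were lost without the third untreated SU-DHL6 library. The MME call was lost by limma-voom and without the third treated OCI-LY3 library. Leaving out a single library also lost those for ACTG2 and PRKCB. Genes with 0 counts in a group have values that depend on the prior count.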

How the results depend on the processing

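The number of genes higher in treated OCI-LY3 was 3026 without genes that share exons with another gene, and 3249 were lower; untreated these were 2970 and 2869. That exclusion gave changes of 1524 more positive and 1602 more negative, with 4433 differences that remained, 830 that appeared, 567 that vanished and 384 that reversed, since fewer genes are tested. An absolute log2 value of at least 1 gave 3798 lower treated, 3623 higher and 3264 lower untreated, changes of 1752 and 1561, 5114 that remained and 70 that reversed. An adjusted p under 0.01 gave 1727 changes that were more negative and 389 reversals. Total-count scaling moved the median treated difference of all genes from -0.03 to -0.47 and that of the change from 0.02 to -0.35, and gave 1817 changes more positive and 4891 more negative.

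Reversed treated values were, with genes that share exons left out, the medians of germinal centre factors (0.963) and chemokines (0.010). With total counts they were endoplasmic reticulum folding (-0.367), cholesterol synthesis (-0.311), CD79B (-0.251), SLC30A1 (-0.438), MCL1 (-0.073), HLA-DRA (-0.442) and HLA-DMA (-0.377). With GC and length offsets they were CD79B (-0.237) and ARRDC3 (0.495). The cause was not tested.

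Without 1 library in turn, genes higher and lower numbered 5750 to 6210 and 5525 to 6181 treated, and 5252 to 5731 and 5157 to 5601 untreated. Changes numbered 2642 to 3536 and 2380 to 3147, with 7819 to 8088 remained, 1397 to 1852 appeared, 967 to 1206 vanished and 614 to 996 reversed. Deviations from group means correlated at -0.23 to 0.10 between same-numbered libraries. With 3 libraries per group, this does not settle whether replicate numbers pair the libraries. With the replicate number as a block, 5860 and 5770 genes were called treated, 5406 and 5406 untreated and 3030 and 2590 for the change, with 7961 remained, 1568 appeared, 1113 vanished and 694 reversed.

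Of 6353 values of named genes under 25 alternatives, 6230 kept direction and side of the threshold, 98 lost the call, 18 gained it and 7 reversed. Depth limits genes at a few counts per library, whose folds are given as bounds.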

Other observations

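Zinc finger genes, grouped after the data had been seen, lay lower in OCI-LY3. Of 437 tested ZNF genes, 87 were higher and 206 lower (47.1%) in treated OCI-LY3, against 35.8% lower over all genes tested, with a median log2 difference of -0.42, and 90 were higher and 171 lower untreated. With GC and length offsets the treated counts were 90 and 192 and the median -0.34.

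MYC, the growth-driving transcription factor, varied widely between replicates of OCI-LY3. It was at 18.1, 164 and 161 CPM in untreated OCI-LY3, 8.0, 8.02 and 7.80 in untreated SU-DHL6, 12.7, 152 and 11.9 in treated OCI-LY3 and 15.7, 8.86 and 8.61 in treated SU-DHL6. The first untreated OCI-LY3 library was far below the other libraries of its group and the second treated OCI-LY3 library far above those of its own, and the treated difference of 2.42 ± 1.14 was not called, though it was 2.92 and called without the third treated OCI-LY3 library.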
